A study of Arabidopsis thaliana with 45 samples.

Results

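The 100 genes described here were those that lay furthest below Col-0, on each of 4 days, in first true leaves of Arabidopsis thaliana labelled tcx5/6. For every gene in the table the mean of log2(value + 1) in tcx5/6-labelled leaves was subtracted from the mean in Col-0 leaves of the same day, at D13, D18, D23 and D30 under long days. Genes were ranked by the smallest of the 4 differences, and the 100 highest of 37336 were taken as members. The values that chose the members are therefore given as a description, without a test, and the tests use libraries that the rule did not use.

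RNA sequencing of polyadenylated RNA had been done on 45 libraries in 15 groups of 3. Wild-type Col-0 was grown under long days, with 16 h of light and 8 h of dark, and first true leaves were taken at 5 ages (D13, D18, D23, D30, D40). Col-0 was also grown under short days, with 8 h of light and 16 h of dark, and taken at the same 5 ages. The line labelled tcx5/6, in the Col-0 background, was grown under long days, with the oldest leaves taken at D45 and the 4 earlier ages as in Col-0. The labels count days in DAG without spelling it out, name no allele for tcx5/6, and do not say whether the 3 libraries of a group came from separate plants. The p-values below therefore rest on the variation among libraries of a group, part or all of which may be technical.

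TCX5 and TCX6 are CXC-domain proteins that, in Arabidopsis, act in a repressor complex of the DREAM type and hold down genes for the upkeep of DNA methylation. Many of the members have known roles elsewhere in leaf physiology. SEN1, DIN10, ASN1 and STP1 are known to rise in darkness or when sugar runs low. The xyloglucan endotransglucosylase/hydrolases, expansins and beta-xylosidases loosen or trim the cell wall, and many genes of this kind respond to touch and to the time of day. Clock genes give that time: CCA1 and LHY peak around dawn, and TOC1 and ELF4 around dusk.

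From D13 to D30 the levels of both targeted genes overlapped between the lines. TCX5 (AT4G29000) lay between 271 and 525 normalised reads, median 337, in the 12 Col-0 long-day libraries of D13 to D30, and between 231 and 522, median 339, in the 12 tcx5/6-labelled ones. Values are read counts divided by 1 size factor per library. For TCX6 (AT2G20110) the same groups spanned 15.7 to 94.9 and 0 to 142. At the last day TCX6 had 418, 112 and 270.1 in Col-0 (long days, D40) and 49.5, 15.1 and 37.2 in tcx5/6-labelled leaves (D45), a log2 change of -2.90 with an adjusted p of 0.00040 (limma). Those groups did not overlap, but their days differ. TCX5 was not called in that comparison (log2 change -0.30, adjusted p 0.28, limma). In Col-0 at D40, short against long days, TCX5 changed by -2.72 (adjusted p 3.0e-12) and TCX6 by 3.12 (adjusted p 0.00017, limma). From D13 to D40 in short days the changes were -0.97 (adjusted p 0.00024) and 2.94 (adjusted p 0.00020, limma). The sources used here do not say which part of either gene the alleles change. The libraries are called tcx5/6-labelled throughout.

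Each library had between 16824317 and 40252818 reads in genes. As for the leaf label, 5 mesophyll genes summed to 5329 normalised reads or more in every library, while 4 seed genes summed to at most 54.3 and 4 shoot meristem genes to at most 18.7. The sums of 5 flower genes reached 238 and those of 5 root genes 1680. At D13 the root genes summed to 1652 to 1680 in tcx5/6-labelled leaves and 548 to 697 in Col-0 long-day leaves. For 8 stomatal lineage genes the sums were 3444 to 3793 against 1120 to 1306. For 8 vasculature genes they were 6492 to 6931 against 13203 to 15630. The sums of mesophyll genes and of myrosin cell and trichome genes were also lower in tcx5/6-labelled leaves at D13. The part of these differences in the members' values was not tested. The 3 short-day libraries of a group were unusually alike: their ratio of variance to counting noise was 1.13 to 1.20 times as high at 1000 reads or more as at 20 to 100 reads, against 2.16 to 36.6 times in the other 10 groups. The sources used here do not say what the libraries of a short-day group share. The members' median changes in short days are therefore also given with each short-day group entered as 1 library. Counts of role groups and other gene lists are not given in that setting. In short days at D40, 17.8% of genes with a median of 20 to 50 normalised reads were at 0 in at least 1 library, and in tcx5/6-labelled leaves at D18 the share was 29.7%, so a 0 does not show that a gene was silent.

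The member ranked highest was AT3G15450, annotated as an aluminum induced protein with YGL and LRDR motifs. In Col-0 long-day leaves its libraries ranged from 11870.3 to 57228 normalised reads over D13 to D30, with a median of 44889.8. The 12 tcx5/6-labelled libraries ranged from 26 to 1199, with a median of 237. The highest tcx5/6-labelled library thus stayed well under the lowest Col-0 library, and the smallest of the 4 log2 differences was 6.24. In whole leaves, fewer cells that express a gene and less of its RNA per cell cannot be told apart.

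XTH25, which cuts and rejoins wall xyloglucan, ranged from 40.5 to 910.3 in the 12 Col-0 libraries, with a median of 558, and from 0 to 15.2 in the 12 tcx5/6-labelled ones, with a median of 0. SEN1, a senescence and darkness marker, ranged from 261 to 24165 (median 2117) in Col-0 and from 0 to 1095 (median 6.58) in tcx5/6-labelled leaves. Across days the SEN1 ranges overlapped, and both lines had their highest mean of the 4 days at D30 (18862 ± 5399.6 in Col-0 and 547 ± 482 in tcx5/6-labelled leaves, SD, n = 3). BT2, a BTB and TAZ domain scaffold protein whose gene responds to nutrients, ranged from 705 to 23418 (median 11643) against 0 to 65.4 (median 9.02). ASN1, glutamine-dependent asparagine synthetase, ranged from 514 to 13016 (median 3111) against 0 to 329.9 (median 56.2). BT2 and ASN1 left a gap between the lines on every day.

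Among the other members ranked to 15 were PHI-1, a phosphate-responsive family protein, BXL1, a beta-xylosidase, ACS8, which makes the precursor of ethylene, BT5, a relative of BT2, and the glycine-rich gene AT2G05540. BXL1 was among the highest of them, with 4885 to 37687 normalised reads (median 26159) in the 12 Col-0 libraries and at most 1947 (median 244) in the 12 tcx5/6-labelled ones. PHI-1 ranged from 14.2 to 16310.3 (median 1959.8) in Col-0 and from 0 to 38.9 (median 0.483) in tcx5/6-labelled leaves. Its lowest Col-0 libraries were those of D23, with 87.4, 40.0 and 14.2, and its tcx5/6-labelled libraries of D23 were at 0. ACS8 ranged from 46 to 468 (median 143) in Col-0 and from 0 to 23.7 (median 0) in the other line.

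**Figure D1:**
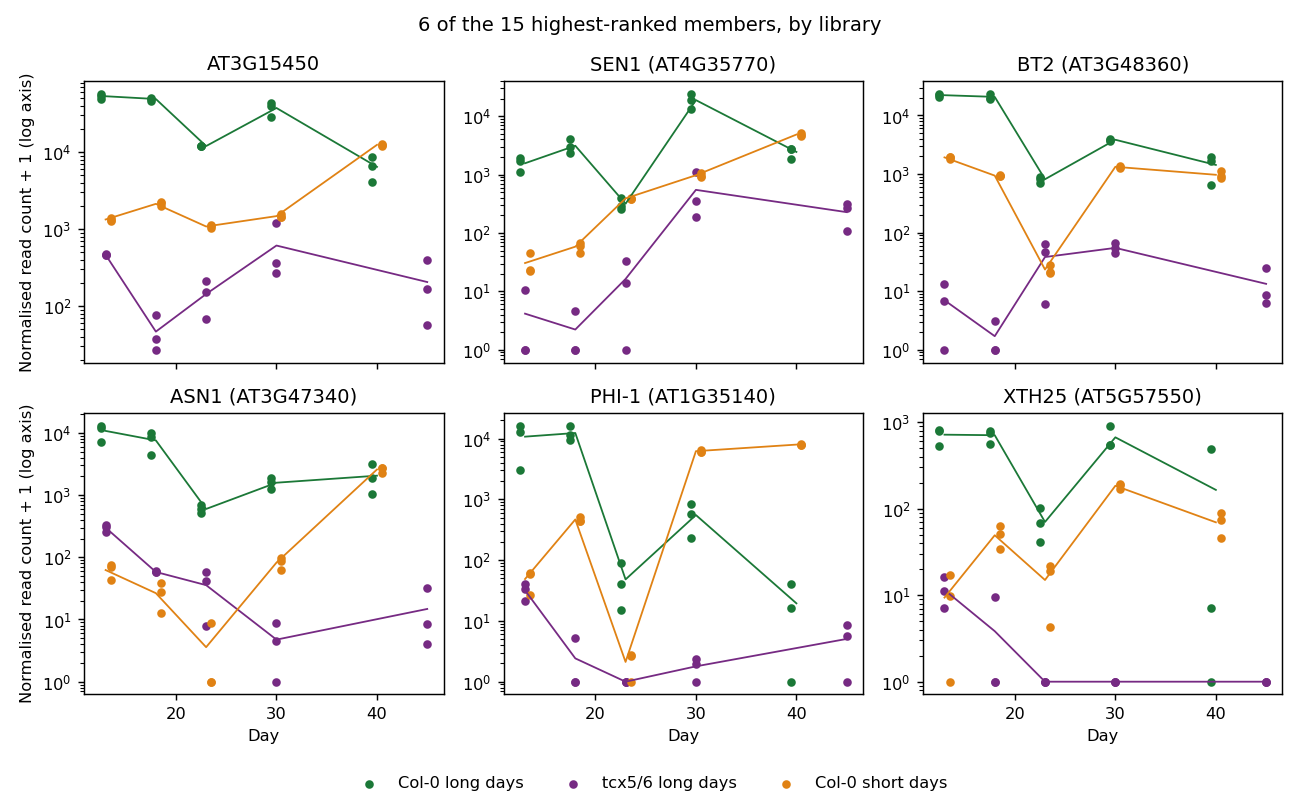
Normalised read count + 1 on a log axis against day for 6 of the 15 highest-ranked members. Each point is 1 library, lines join the mean of each group, and colours mark Col-0 long days (green), tcx5/6-labelled long days (purple) and Col-0 short days (orange); short-day points start near or under the purple ones at D13 for ASN1, PHI-1 and XTH25, and their mean is above that of the green ones at D40 for AT3G15450, SEN1, ASN1 and PHI-1.

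Over all members the smallest difference had a median of 3.29 on the log2 scale. It was the difference of D13 in 23 members, of D18 in 8, of D23 in 46 and of D30 in 23. The median difference was 4.89 at D13, 6.69 at D18, 4.13 at D23 and 4.36 at D30. In 60 members all 12 tcx5/6-labelled libraries lay below all 12 Col-0 libraries, which held for 2.93% of the 23493 genes tested. That count follows from the rule and is not a finding.

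The members spanned a wide range of levels. Their mean over the 12 Col-0 long-day libraries of D13 to D30 ran from 20.6 to 41154 normalised reads, with a median of 556, against 266 over all genes tested. The last members taken were DYL1, a dormancy-associated gene, OCT6, a carnitine transporter, and AT1G27020, each with a smallest difference of 2.77. Just outside were AT5G40450 and AT4G08985 at 2.76 and AT3G07350 at 2.75. Below the threshold the values went on without a gap: 234 genes had a smallest difference of at least 2 and 948 of at least 1. With a pseudocount of 5 in place of 1, 70 of the 100 were chosen again, and with 1 library number left out of every group 78 to 83 were.

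Within Col-0 long days the members did not share 1 day of highest level. The highest group mean lay at D13 in 29 members (24.99% of genes tested), D18 in 35 (10.36%) and D23 in 4 (14.97%). It lay at D30 in 26 (12.71%) and at D40 in 6 (36.97%). In Col-0 short days it lay at D13 in 14, D18 in 18, D23 in 4, D30 in 18 and D40 in 46. Over all genes tested the highest short-day mean lay at D13 in 31.7%, D18 in 13.5%, D23 in 13.5%, D30 in 10.1% and D40 in 31.3%. In tcx5/6-labelled leaves the highest mean lay at D13 in 37 (32.8% of genes tested), D18 in 11 (16.8%) and D23 in 3 (8.65%). It lay at D30 in 21 (14.6%) and at D45 in 28 (27.2%). The long-day libraries of D13 to D30 also chose the members, so the long-day counts of both lines are a description.

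**Figure D2:**
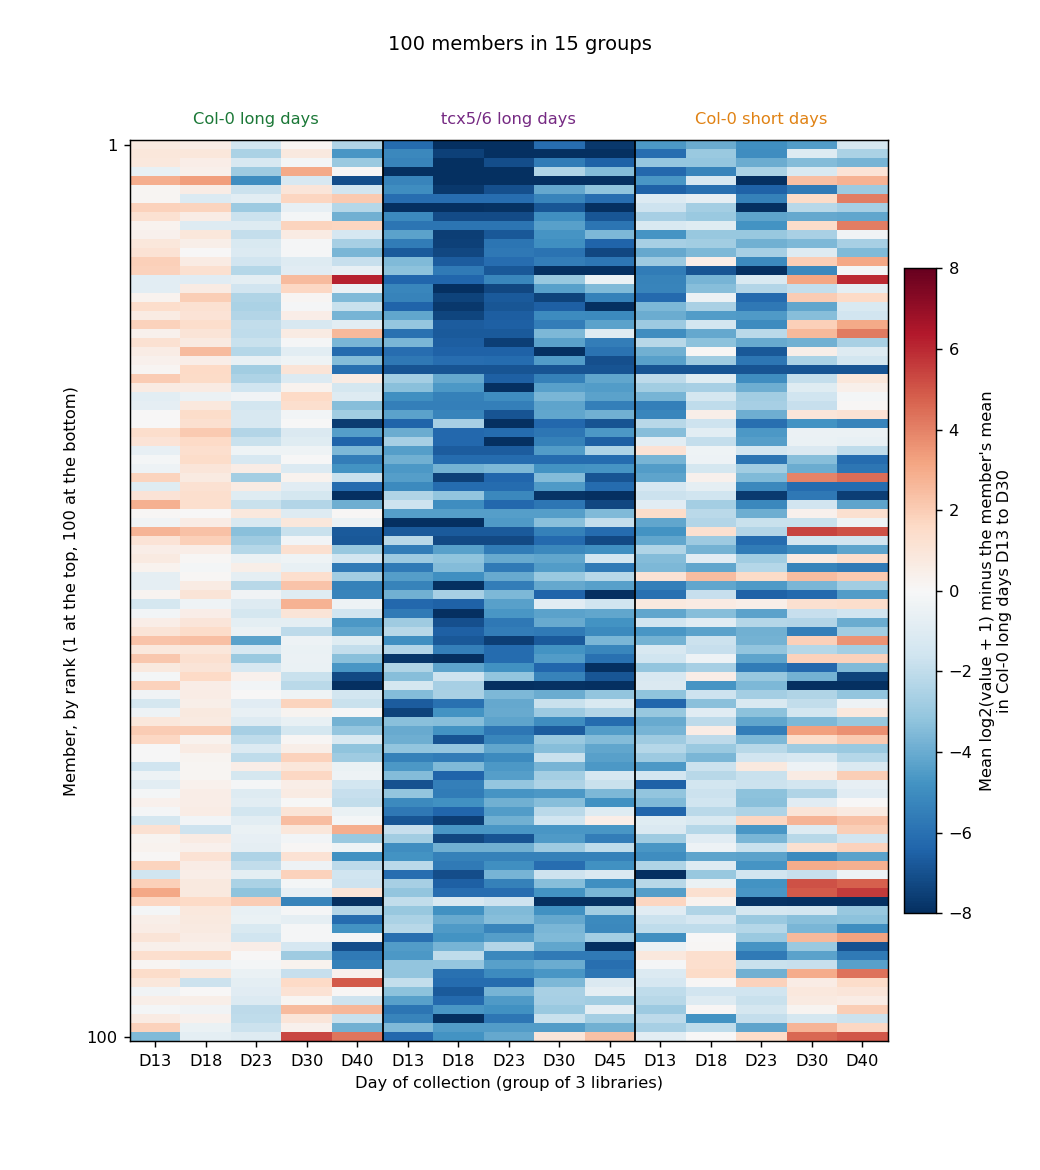
Each row is a member, ordered by rank, and each column 1 of the 15 groups; colour gives the group's mean log2(value + 1) minus the member's mean over Col-0 long days D13 to D30, limited to 8 either way. The tcx5/6-labelled block is blue (lower) from D13 to D30 by construction, but for AT1G27020 (rank 100) at D30, and the short-day block turns from mostly blue at D13 to a mix of blue and red at D30 and D40; 46 members had their highest short-day mean at D40, as did 31.3% of all genes tested.

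In short days at D13 most members were low as well. All 3 short-day libraries lay below all 3 Col-0 long-day libraries of the day in 87 members (background 28.0% of genes tested), and above them in 5 (32.0%). At D18 80 members lay below (23.9%) and 5 above (24.6%), at D23 79 below (32.4%) and 6 above (31.6%), and at D30 65 below (27.3%) and 26 above (33.3%). At D40 only 3 members lay below every long-day library (19.5%), while 40 lay above (26.6%). The median of short days minus long days went from -3.89 at D13 to -2.65 at D18, -2.46 at D23, -1.76 at D30 and 1.09 at D40 on the log2 scale, with the median over all genes tested between 0 and 0.07. The long-day libraries of D13 to D30 also chose the members, so nothing is read from these counts on those days. In 37 members the short-day libraries were all below those of long days at D13 and all above at D40, which held for 8.42% of genes tested.

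By the median, short-day values stood between the lines on all 4 of those days. At D13, 48 members lay above every tcx5/6-labelled library of the day (26.3% of genes tested) and 8 below (24.2%). Those above numbered 87 at D18 (28.3%), 54 at D23 (28.8%) and 73 at D30 (28.4%), and those below 2 (22.6%), 4 (25.7%) and 1 (23.1%). At D40, 74 were above every tcx5/6-labelled library of D45 (30.9%) and 0 below (23.2%). AT3G15450 was low in short days at D13 and D18. Its short-day libraries had 1265, 1319.8 and 1411 normalised reads at D13, against 49659, 57228 and 52852 in long days and 461, 454 and 473 in tcx5/6-labelled leaves. The short-day libraries then had 12575, 12176 and 12559.8 at D40, above the 8694, 6564 and 4054 of long days.

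Some members departed from this. AT3G50010, a C1 domain protein, had short-day libraries above the long-day ones on each of the 5 days. Its 15 short-day libraries ranged from 46.9 to 187 (median 145) and the 12 Col-0 long-day libraries of D13 to D30 from 10.3 to 84.1 (median 27.2). AZI1, which primes systemic immunity, ranged from 285 to 667 in short days, with 342, 405 and 363 at D13 against 58.3, 86.6 and 98.6 in long days. AT3G16670, a pollen Ole e 1 family gene, had 7856, 7941 and 8082 in short days at D13, inside the long-day range of 6033 to 9399. The non-coding RNA AT5G03615 was at 0 in all 15 short-day and all 15 tcx5/6-labelled libraries, and had 8.99 to 489 (median 159.8) in the 12 Col-0 long-day libraries.

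**Figure D3:**
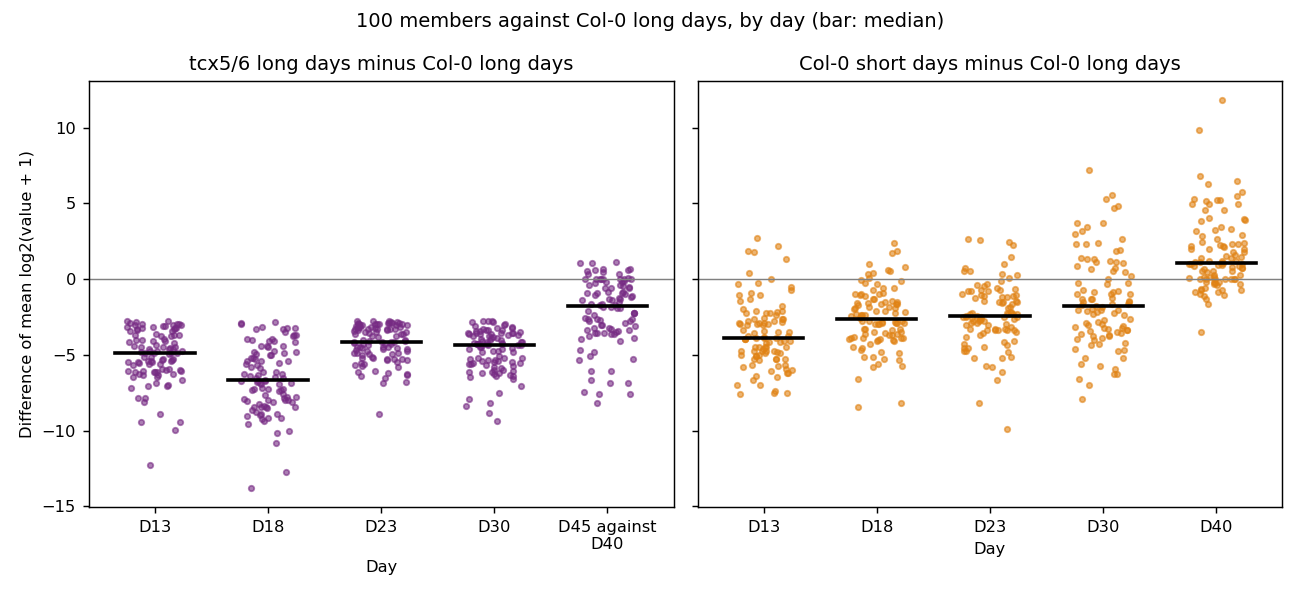
Difference of mean log2(value + 1) from Col-0 long days for each of the 100 members (points; bar, median), by day, for tcx5/6-labelled long days on the left and Col-0 short days on the right. The left medians run from -6.69 to -4.13 on the 4 days the rule used and stand at -1.81 for D45 against D40, and the right medians move from -3.89 at D13 to 1.09 at D40.

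At D40, a day that the rule did not use, short-day leaves had higher levels than long-day leaves for 41 members and lower levels for 3 at an adjusted p under 0.05 (limma), and 56 were not called. Over all genes tested 29.1% were called higher and 21.2% lower. The members' share called higher was above that background and their share called lower under it. The median log2 change was 1.09 over members and 0.07 over all genes tested. After quantile normalisation the split over all genes turned from 6844 higher and 4976 lower to 5178 higher and 6994 lower, with a median of -0.15, while the members then had 34 higher and 4 lower. Of the 41, 33 had groups that did not overlap, 30 stayed called without each library in turn, and 25 with each short-day group as 1 library. Of the 3 lower, 2 stayed called under that last setting. Fewer of all genes tested were called under it too, so its counts are not comparable with the 29.1% and 21.2% above. The median log2 change was then 1.37 over members and 0.16 over all genes tested. All 5 mesophyll genes were called higher in short days too (limma), with a summed level of 104764 to 111355 normalised reads against 5329 to 36670 in long days at D40. Their part in the members' differences was not tested.

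The largest rise was that of AT1G33760, an AP2/ERF-type transcription factor gene. Short-day libraries at D40 had 3331, 3657 and 3646 normalised reads and all long-day libraries 0. Set against 3 reads over the long-day group it was at least 2617-fold higher, with an adjusted p of 4.4e-13 in limma. At D13 the order was the other way, with 13.6, 2.81 and 0 in short days and 1667, 1548 and 129.6 in long days.

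PHI-1, of the EXORDIUM-like family, had 8215, 7780.2 and 7926 in short days at D40 against 15.4, 40.0 and 0 in long days, a log2 change of 9.83 ± 0.86 (SE, adjusted p 1.3e-11, limma). The groups did not overlap. AT2G27080, a LEA-type hydroxyproline-rich glycoprotein, had 6577, 6226 and 6348 against 80.0, 49.4 and 47.6, a log2 change of 6.77 ± 0.61. AT1G15010, annotated as a mediator subunit, rose by 6.27 ± 0.96. For AT2G35935 the log2 change was 6.44 ± 0.89, but its exons lie wholly under those of AT2G35930 on the opposite strand and the reads of the pair cannot be told apart.

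The 3 members that were lower in short days at D40 were GH3.3, AT2G44130 and AT2G05540. GH3.3, which couples auxin to amino acids, had 246, 189 and 156 normalised reads in short days and 9311, 1953 and 563 in long days, a log2 change of -3.48 ± 0.72 (adjusted p 0.00012, limma). The kelch-repeat gene AT2G44130 had 273, 185 and 173 against 891, 784 and 416, a change of -1.68 ± 0.27, and its exons are covered by AT2G44140 on the opposite strand. AT2G05540 had 657, 649 and 929.9 against 1702, 5975 and 612. Its groups overlapped, and its call was lost when any of 4 single libraries was left out: long-day replicate 1 or 2, or short-day replicate 1 or 2 (adjusted p 0.001 to 0.47, limma).

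Members were also grouped by known role, with the groups put together by hand after the values were seen, so the counts are a description. Over all genes tested 29.1% were called higher in short days at D40 and 21.2% lower, and some of the groups came near those shares. Of 10 cell wall members, 5 were called higher in short days at D40 and 5 were not called. GATL10, related to enzymes of pectin synthesis, had 6003, 6535 and 6157 in short days and 937, 179 and 321 in long days, a log2 change of 4.04 ± 1.0 (SE), a call lost with each short-day group as 1 library (adjusted p 0.078, limma). EXLA1, an expansin-like protein, had 1569, 1578 and 1812 against 163, 148 and 51.2. EXLA1 changed by 3.93 ± 0.40 and kept its call under that setting. Neither gene's groups overlapped.

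Of 9 members known for sugar, nitrogen or low-carbon responses, 4 were called higher at D40 and 5 not called. BT5 had 11381, 11226 and 10097 in short days and 614, 263 and 284 in long days, a log2 change of 4.92 ± 0.79. STP1, a hexose transporter of the plasma membrane, had 9505, 10471 and 10059 in short days and 1857, 2296 and 2584 in long days, a log2 change of 2.17 ± 0.54 that was not called with each short-day group as 1 library (adjusted p 0.076, limma). DIN10, a raffinose synthase family member, had 11544, 11553 and 10794 against 11017, 8486 and 4991, and was not called (adjusted p 0.34, limma). ASN1 and BT2 were not called either, at log2 changes of 0.47 ± 0.71 and -0.42 ± 0.62.

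Of 10 transcription factor members 5 were called higher and 5 not called. MYB73 had 6705, 6735 and 6723 in short days at D40 against 1331, 1670.0 and 1348 in long days. RAV2, also called TEM2 and known to repress FT, had 11755, 12660.3 and 12814 against 1508, 1203 and 2576. Each of these 2 genes had separate groups and kept its call in all alternatives that left out 1 library. The remaining role groups were smaller: of 6 hormone members 1 was higher (SOB5) and 1 lower (GH3.3), of 6 transport members 2 were higher (PUP18 and OCT6), and of 6 stress and defence members 3 were higher (HSPRO2, PUB22 and AT2G27080). PUB22, a ubiquitin ligase of immune signalling, had 1050.1, 868 and 914 against 13.8, 46.7 and 39.3.

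In tcx5/6-labelled leaves at D45, set against Col-0 long days at D40, 54 members were called lower and 1 higher, and 45 were not called (limma). Over all genes tested 26.5% were lower and 25.0% higher. The median log2 change of the members was -1.81 and that of all genes tested 0. In 49 of the 54 the groups did not overlap, and 46 stayed called without each library in turn. Called or not, 52 members had every tcx5/6-labelled library below every Col-0 library, as did 26.1% of genes tested. Genotype and day cannot be told apart here, and the Col-0 libraries are those used in the short-day comparison at D40, so the 2 comparisons are not independent. The 5 mesophyll genes were again all called higher, summing to 41132 to 156538 in tcx5/6-labelled leaves at D45, and their part in the members' values was not tested.

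ASN1 had 3.09, 7.53 and 30.7 normalised reads at D45 and 3188, 1905 and 1049 in Col-0 at D40, a log2 change of -7.49 ± 0.71 (SE, adjusted p 6.8e-11, limma). BT2 had 7.73, 5.27 and 24.1 against 1954, 1681 and 656, a change of -6.86 ± 0.62. UCC2, a uclacyanin, was at 0 in all 3 libraries against 446, 117 and 127, at least 264-fold lower against 3 reads over the group. In each of these 3 genes every tcx5/6-labelled library lay below every Col-0 library. AT4G22470, a lipid transfer protein family gene, and AT4G22467 were also at 0 in all 3, and had 72.6 to 1369 and 32.1 to 1035 in Col-0, but they share most of their exon length on opposite strands and count as 1 locus here.

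DIN10 was lower too, with 49.5, 40.7 and 147 against 11017, 8486 and 4991 (log2 change -6.84 ± 0.46). Of the 9 sugar, nitrogen and low-carbon members 7 were lower and 2 not called, and of the 10 wall members 6 were lower and 4 not called. The share lower over all genes tested was 26.5%. BXL2 was at 0 in all 3 libraries, at least 58.3-fold lower. RAV2 was not called, with 1382, 1708 and 2027 at D45 and 1508, 1203 and 2576 in Col-0 at D40 (log2 change 0.01 ± 0.40, SE, groups overlapping). The 1 member called higher was AT1G25230, a metallophosphoesterase gene, with 49.5, 42.2 and 77.8 against 24.6, 42.7 and 16.7. Its groups overlapped, and the call was lost without tcx5/6-labelled replicate 3 or Col-0 replicate 3 (adjusted p 0.0023 to 0.11, limma).

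**Figure D4:**
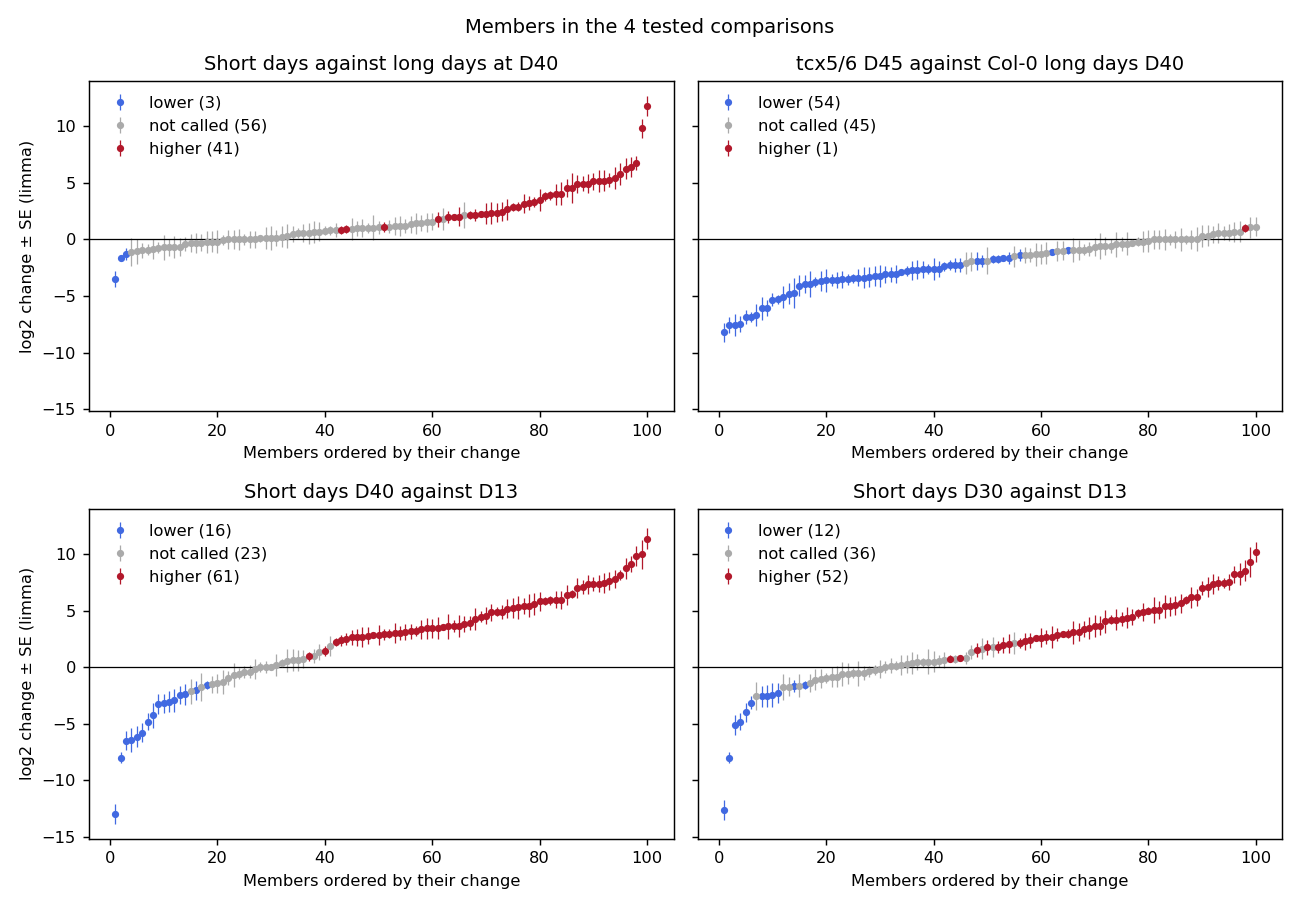
Log2 change ± SE (limma) of each of the 100 members, ordered by change, in the 4 tested comparisons; red points were called higher, blue points lower and grey points neither, with the number in the key. Short days at D40 against long days has 41 red and 3 blue points, and tcx5/6-labelled D45 against Col-0 D40 has 1 red and 54 blue.

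With age in short days, from D13 to D40, 61 members rose and 16 fell (limma). The background was 34.0% of genes tested rising and 36.5% falling, so that the members' share that rose was above it and the share that fell under it. Their median log2 change was 2.88. Without each library in turn 58 of the 61 and 12 of the 16 stayed called. From D13 to D30, 52 rose and 12 fell, against a background of 28.8% and 28.7%, with a median of 1.78. With each short-day group as 1 library fewer members were called in both comparisons, and fewer of all genes tested too. The members' median log2 change under that setting was 2.86 to D40 and 1.74 to D30, against -0.01 and -0.03 over all genes tested. The D13 libraries are common to both comparisons, and 49 members rose in both. All 5 mesophyll genes fell in both comparisons (limma), with a part in the members' changes that was not tested.

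NAC3, a NAC transcription factor of jasmonate signalling, had 6.81, 0 and 0 normalised reads in short days at D13, 743, 733 and 733 at D30 and 5484, 4827 and 5194 at D40. The log2 change to D40 was 11.35 ± 0.94 (SE, adjusted p 5.5e-13, limma). RTFL12, which encodes a small ROTUNDIFOLIA-like peptide, had 4.09, 0 and 5.87 at D13, 1769.9, 2154 and 2247 at D30 and 3152, 3101 and 3587 at D40. AT4G28085, an uncharacterised gene, went from 6.81, 4.22 and 0 to 2020.0, 1746 and 2029 at D40. In each of these the D40 libraries were all above the D13 libraries.

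The course between those days was not even. HSPRO2, a stress-responsive gene, had 260.2, 277 and 242 at D13, 7365, 8153 and 8065 at D18, 924, 1023 and 1000.2 at D23, 46245, 46814 and 46167 at D30 and 75047, 72128 and 73179.6 at D40. PUP18, a purine permease, had 764, 694 and 805 at D13, 2052, 2026 and 1834 at D18, 210.5, 134 and 170.1 at D23, 20809, 20876 and 20576 at D30 and 44557, 45270.3 and 45020.5 at D40. For both genes every library of D23 lay under those of D18 and D30. SEN1 had means of 29.6, 57.4, 390.4, 974 and 4854 on the 5 days in order, and rose from D13 to D40 by a log2 change of 7.39 ± 0.78. ASN1 stayed low until D30, when it had 62.4, 94.8 and 86, and reached 2742, 2686 and 2302 at D40.

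Among those that fell were wall genes. EXPA16, an expansin, had 234, 252 and 289 at D13 and was at 0 in all libraries of D30 and D40, at least 287-fold lower and at least 305-fold lower. It was at 0 in all long-day libraries of D40 and all tcx5/6-labelled libraries of D45 as well. XTH4 had 1887, 1697 and 2111 at D13 and 37.2, 50.5 and 18.9 at D40, a log2 change of -5.80 ± 0.85. AT3G16670 went from 7856, 7941 and 8082 to 0 in all 3 libraries, at least 9403-fold lower. NRT2:1, a nitrate transporter, had 226, 223 and 208 at D13 and 4.65, 47.7 and 48.7 at D40, a change of -3.20 ± 0.84 that was not called with each short-day group as 1 library (adjusted p 0.18, limma). ESE3, an AP2/ERF-type factor, had 195, 172 and 138 at D13 and 0, 12.6 and 0 at D40. The thioredoxin family gene AT4G15660 had 194, 252 and 266 and then 0, 19.6 and 0. Of the 10 wall members 6 rose and 3 fell to D40, so the group did not move as one. Of the 9 sugar, nitrogen and low-carbon members 7 rose and 2 were not called. The shares over all genes tested were 34.0% rising and 36.5% falling.

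Other members that rose to D40 came from several families. AT1G77640, another AP2/ERF-type gene, had 4.09, 0 and 1.47 at D13, 681, 682 and 704 at D30 and 727, 459 and 406 at D40. The kelch-repeat gene AT1G80440 had 74.9, 66.1 and 92.4 at D13 and 4793, 4330.4 and 4315 at D40, a log2 change of 5.84 ± 0.34. AT1G27020, the last member ranked, had 134, 111 and 188 at D13 and 8151, 7995 and 7751 at D40. In long days AT1G27020 was also low at D13, with 7.6, 31.6 and 37.8, and had 10770.5, 9854 and 10102 at D30. AT1G15125, annotated as a methyltransferase, had 866, 904 and 987 at D13 and 8889, 9222 and 9649 at D40, and its rise was not called with each short-day group as 1 library (adjusted p 0.14, limma).

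FT was the only member on any of the lists of other pathways and cell types. It encodes the flowering signal made in leaves under inductive days. It had 0 in all short-day libraries at D13, 32.5, 12.1 and 13.4 at D30 and 32.5, 0 and 36.5 at D40, and was at least 27.4-fold higher at D30 and at least 32.6-fold higher at D40 against 3 reads over the D13 group (adjusted p 0.00027 and 0.0016, limma). At D40 1 library was at 0, so that group overlapped that of D13. In tcx5/6-labelled leaves at D45 FT was at 0 in all libraries, against 7.14 to 28 in Col-0 at D40, at least 21.1-fold lower. The other 13 genes of the flowering time list are not members. Counting FT, 6 of its 14 genes rose and 3 fell in short days from D13 to D40.

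Clock genes also stood apart between the lines on some of the days that chose the members, which is given as values only. At D13 the mean log2 level in tcx5/6-labelled leaves minus that in Col-0 long-day leaves was 4.75 for CCA1 and 4.51 for LHY, and -3.60 for TOC1 and -5.38 for ELF4. At D18 the differences were 4.49, 4.42, -3.89 and -5.78. At D23 they were 1.42, 1.09, -0.23 and -0.67. At D30 they were -1.21, -1.18, 0.37 and 2.15, the opposite sign for all 4. Of the other clock genes listed, PRR9, PRR5 and LUX differed by 5.19, -2.63 and -3.85 at D13, and PRR7 by 0.14. Short-day means minus long-day means for CCA1, LHY, TOC1 and ELF4, in that order, were 2.31, 2.92, -0.95 and -0.50 at D18, 1.06, 1.398, 1.22 and 1.03 at D23, and -0.20, -0.79, 0.48 and 1.31 at D30. At D13 they were 0.02, 1.56, -0.0045 and 1.04. The sources used here give no hour of collection, and its part in the members' differences was not tested. Of the 8 clock genes listed, none of them a member, 1 was called higher and 5 lower in short days at D40, and 4 higher and 4 lower in tcx5/6-labelled leaves at D45 (limma).

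Touch and wound genes differed between the groups too, which is given as values. The list holds TCH2, TCH4, WRKY40, ERF4 and ZAT10, none of them a member. Their summed level was 20126 to 89887.5 normalised reads in Col-0 long days at D13, 2795 to 3147 in short days and 1346 to 1966 in tcx5/6-labelled leaves. At D40 it was 2966 to 9303 in long days and 129328 to 134273 in short days, and at D45 2193 to 2398 in tcx5/6-labelled leaves. The sums of short and long days thus changed order between D13 and D40. At D23 the short-day sum of 2374 to 2589 lay within the long-day range of 1689 to 4834. At D30 it was 80409 to 81569 in short days against 5453 to 6488 in long days. The members' median of short days minus long days was -2.46 at D23 and -1.76 at D30. At D30, 65 members lay below every long-day library (27.3% of genes tested) and 26 above (33.3%). All 5 listed genes were called higher in short days at D40 and all 5 rose in short days from D13 to D40 and from D13 to D30, and 3 were called lower in tcx5/6-labelled leaves at D45 (limma). Within Col-0 long days at D13 replicate 3 was the lowest of the 3 for the list's sum. The part of touch or handling in the members' differences was not tested.

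**Figure D5:**
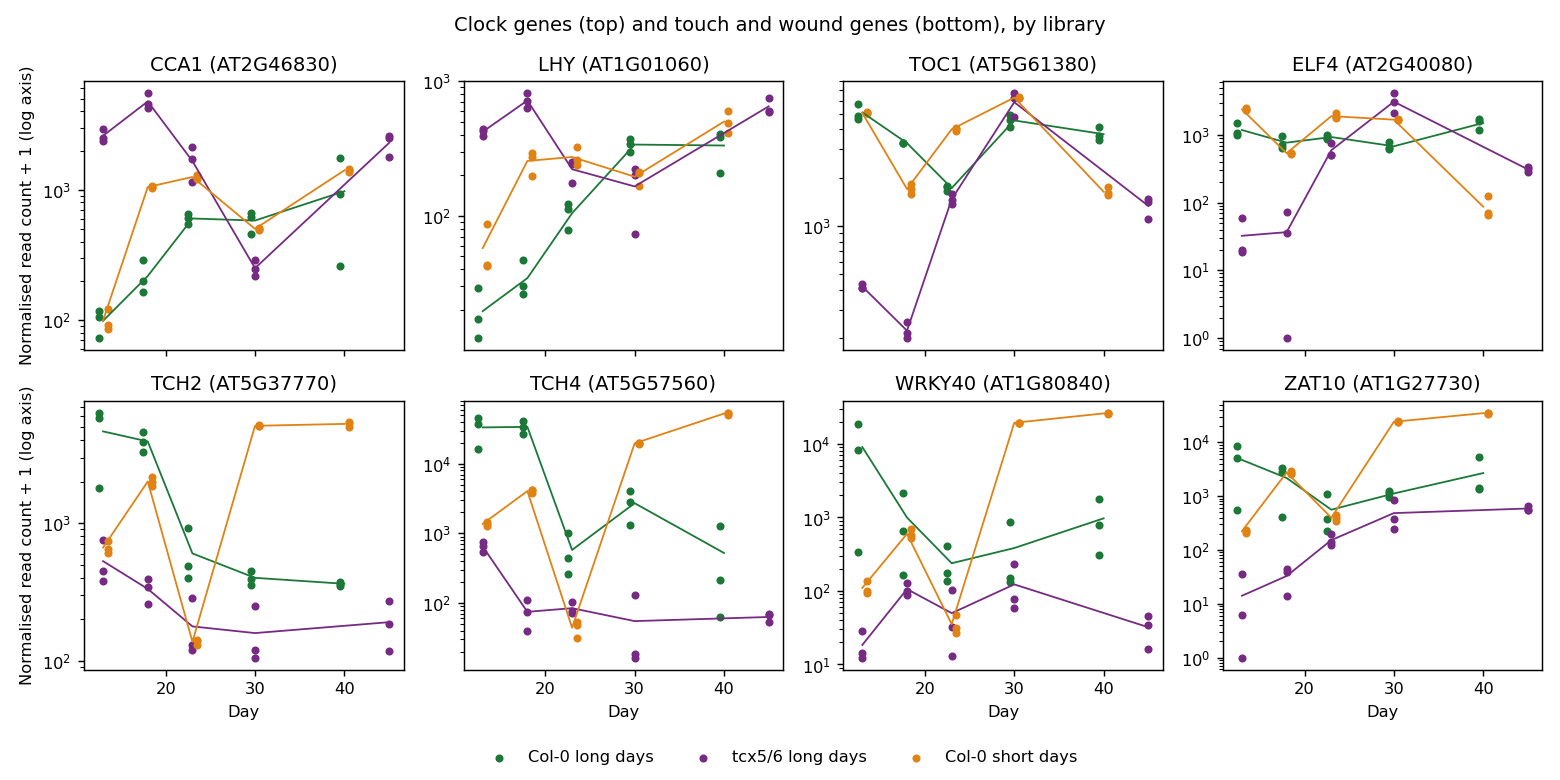
Normalised read count + 1 on a log axis against day for 4 clock genes (top) and 4 touch and wound genes (bottom). Each point is 1 library and lines join group means, with Col-0 long days in green, tcx5/6-labelled long days in purple and Col-0 short days in orange; CCA1 and LHY are high and TOC1 and ELF4 low in tcx5/6-labelled leaves at D13 and D18, and all 4 touch and wound genes are higher in short days than in long days at D30 and D40.

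None of the genes on the other lists is a member. Of 9 matched DREAM and CXC genes 5 were higher and 1 lower in short days at D40, 2 higher and 3 lower in tcx5/6-labelled leaves at D45, and 2 rose and 4 fell in short days from D13 to D40. Of 12 DNA methylation and silencing genes 8 were higher and 3 lower, then 6 higher and 2 lower, and from D13 to D40 8 fell and 4 were not called. Of 10 salicylic acid and immunity genes 6 were higher and 4 not called, then 6 lower and 4 not called, and all 10 rose from D13 to D40.

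Every member, 100 of 100, had a locus in the RefSeq annotation of TAIR10.1, and the members lay on all 5 nuclear chromosomes, with 34, 13, 18, 19 and 16 on chromosomes 1 to 5. On the chromosome 6 pairs of members were next to each other. One is AT1G02610, a RING finger gene, with AT1G02620, and another is AT4G27450, a relative of AT3G15450, with CBSX5. In short days from D13 to D40 AT4G27450 rose by a log2 change of 4.57 ± 0.73 and CBSX5, which was at 0 in all D13 libraries, was at least 199.8-fold higher. The other 4 pairs are AT1G23050 with AT1G23052, WRI4 with AT1G09907, AT3G15630 with AT3G15635 and AT4G22467 with AT4G22470, whose exons overlap on opposite strands.

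A gene on the opposite strand overlapped 34 of the members, against 31.9% of genes tested. For 9 members at least 50% of the exon length was covered, against 7.42% of genes tested. Since the labels name a non-stranded protocol, reads from such pairs cannot be told apart, as for AT3G15635 and AT3G15630, ranked 3 and 12. By annotation 10 members are zinc finger or transcription factor genes, against 5.09% of genes tested, 6 are transporters against 2.04%, and 5 are non-coding RNAs against 6.93%. These shares are a description, with no test.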

How the data were processed

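Leaf RNA from 45 libraries was measured by the authors. The deposited table holds a normalised signal per gene: read counts divided by 1 size factor per library, as its name and values show. Trimming, alignment, counting and normalisation tools named in the submitters' processing notes are STAR 2.7.1a, DESeq2 1.40.1, HTSeq 2.0, Trim Galore 0.6.6 and cutadapt, in no order. No source used here names the genome build, so names, neighbours and overlaps came from the reference annotation and no position or sequence is printed. All values divided by their library's smallest step were whole within 0.01, so whole reads were recovered. Of 37336 genes 37051 matched a locus, and 5 entries that name no gene were left out. They include reads in no gene, which were 45.95 to 48.2% of counted reads, and ambiguous reads, 0.111 to 0.238%.

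Because the values are normalised, tests were run on log2(value + 1) with limma 3.58.1 (R 4.3.3). A fit with 15 group means, which left 30 residual degrees of freedom, used the trend of variance on mean, and p-values were adjusted by Benjamini and Hochberg over the 23493 genes with at least 10 in 3 libraries. A fold on this scale understates the change of low genes. A lower bound is against 3 reads over the group and covers counting error only. The script was tested on simulated data. All 100 members passed the filter.

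Alternatives were a pseudocount of 5, no filter, quantile and TMM scaling, edgeR 4.0.16 and DESeq2 1.42.0 on recovered reads, only the groups compared, a replicate block, each library left out, each short-day group as 1 library, and, added after seeing the data, tests without genes at least 50% covered on the opposite strand. Members and lists were chosen with earlier results of these data known. Named genes are TCX5, TCX6, the 15 highest ranked, ranks 98 to 103, up to 5 called members at each end per comparison with a group mean of 100 or more, members at 0 in all short-day or all tcx5/6-labelled libraries, the 5 highest in short days relative to long days, listed members and up to 6 neighbours. Other named members were chosen after their values were seen, for their roles.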

Additional observations from a re-analysis of the deposited data

Results flagged for a closer look

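In 37 members all 3 short-day libraries lay below all 3 Col-0 long-day libraries at D13 and above all 3 at D40, so that the difference between day lengths had the opposite sign at the 2 ages. The same held for 8.42% of genes tested. The difference between ages was not tested, and the long-day libraries at D13 had also chosen the members. The log2 difference of short days from long days went from -7.51 to 11.79 for AT1G33760, from -7.56 to 9.83 for PHI-1, from -5.25 to 5.28 for SOB5 and from -2.66 to 2.22 for MYB73. The touch and wound list changed order between the same groups, and its part in the result was not tested.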

How the results depend on the processing

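None of the named called members changed sign under the alternatives run. With only the groups compared in the fit, short days against long days at D40 had 30 members higher in place of 41 and 1 lower in place of 3. In that setting tcx5/6-labelled D45 against Col-0 D40 had 38 lower in place of 54 and 0 higher in place of 1 (edgeR and DESeq2 on recovered reads each gave 1 higher). Over all genes tested 3687 in place of 6844 were then higher in the first comparison, and 3374 in place of 6226 lower in the second. Short days D40 against D13 had 63 members higher in place of 61 and 14 lower in place of 16. Short days D30 against D13 had 59 higher in place of 52 and 19 lower in place of 12. With each short-day group as 1 library, 25 members in place of 41 were higher at D40 against long days, 8 in place of 16 were lower from D13 to D40, and from D13 to D30 5 in place of 12 were lower and 29 in place of 52 higher. The cause of these changes was not tested, beyond the fewer libraries that these fits hold.

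Leaving out 1 library at a time gave 34 to 42 higher and 2 to 4 lower for short against long days at D40, 48 to 57 lower and 0 to 3 higher, in place of 1, for tcx5/6-labelled D45 (0 without tcx5/6-labelled replicate 3 or Col-0 replicate 3, and 3 without Col-0 replicate 2), 58 to 61 higher and 14 to 16 lower for D13 to D40, and 47 to 49 higher and 9 to 12 lower for D13 to D30. Membership kept 78 to 83 of 100. The correlation of same-numbered deviations ran from -0.080 to 0.153. It does not settle whether replicate numbers pair the samples, since the libraries of a short-day group were unusually alike. With a replicate block the counts were 39 higher and 3 lower, 1 higher and 55 lower, 61 higher and 16 lower, and 51 higher and 12 lower. Without genes covered by at least 50% on the opposite strand 91 members were left, with 38 higher and 2 lower in short against long days at D40. Low genes limit precision: several members named above were at 0 in whole groups. Of the named called genes' values under alternatives, 253 of short against long days at D40 stayed past the threshold and 63 did not, as did 398 and 16 for tcx5/6-labelled D45, 516 and 9 for D13 to D40, and 482 and 42 for D13 to D30.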
